A study of Mus musculus with 8 samples.

Results

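Sarcomeric myosin heavy chains are the motor proteins of the thick filament in striated muscle, and the 8 genes described here (Myh1, Myh2, Myh3, Myh4, Myh6, Myh7, Myh7b and Myh8) were followed in cultured mouse myotubes in which the chromatin remodelling subunit Baf60c was knocked down and glucose was varied. The genes were taken by symbol from the platform annotation, through probe sets assigned to 1 gene only, with the brightest probe set where there were several. All 8 were found among 22180 genes on the array, and 6 of them were bright enough to be tested among 13308 genes.

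The cells were C2C12, mouse myoblasts that can be fused into multinucleated myotubes, and their total RNA was read on Affymetrix Mouse Gene ST arrays. All cells carried a retrovirus, were differentiated and then spent 12 h at a set glucose concentration. The 4 groups of 2 arrays were siBaf60c at 10 mM glucose, siScramble at 10 mM, siBaf60c at 1 mM and siScramble at 1 mM, called knockdown and control below. The series design calls the 2 cultures of a group independent biological replicates. All groups come from this cell line, the labels give 1 knockdown construct name and no rescue, and undifferentiated cells were not among these samples.

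Each heavy chain isoform gives a filament its own speed of contraction. Myh3 encodes the embryonic and Myh8 the perinatal form, which lead in developing and regenerating muscle. Myh2, Myh1 and Myh4 encode the fast forms IIa, IIx and IIb of adult limb muscle, and Myh7 the slow form, which is also the beta form of the heart. Myh6 encodes the alpha form of the heart, and Myh7b an ancient slow-tonic form. In the reference annotation Myh3, Myh2, Myh1, Myh4 and Myh8 stand in this order on chromosome 11, Myh6 and Myh7 lie side by side on chromosome 14, and Myh7b is on chromosome 2.

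The promoter windows of 6 of the genes are shown because the members that moved together include genes with and without a shared promoter element. Each window runs from 250 bases before to 50 bases from the annotated start of RefSeq build GRCm38.p6, 5′ to 3′ on the strand of the gene. Capitals mark bases that lie in an exact run of at least 10 bases found in at least 3 of the 8 windows, and overlapping runs are joined, so that the 21-base stretch of Myh1 and Myh8 is whole only in these. Myh7 has 2 annotated starts, and the one nearer the gene body is shown. The windows of Myh6 and Myh7b, which hold no such run, were searched but are not printed.
Myh4, fast IIb, chr11:67237562-67237861 (plus strand): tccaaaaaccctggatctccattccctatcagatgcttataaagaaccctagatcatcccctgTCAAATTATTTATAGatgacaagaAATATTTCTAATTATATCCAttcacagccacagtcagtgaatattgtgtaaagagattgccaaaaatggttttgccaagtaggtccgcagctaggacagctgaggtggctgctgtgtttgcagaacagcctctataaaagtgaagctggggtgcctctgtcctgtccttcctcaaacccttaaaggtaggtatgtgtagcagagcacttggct
Myh1, fast IIx, chr11:67199852-67200151 (plus strand): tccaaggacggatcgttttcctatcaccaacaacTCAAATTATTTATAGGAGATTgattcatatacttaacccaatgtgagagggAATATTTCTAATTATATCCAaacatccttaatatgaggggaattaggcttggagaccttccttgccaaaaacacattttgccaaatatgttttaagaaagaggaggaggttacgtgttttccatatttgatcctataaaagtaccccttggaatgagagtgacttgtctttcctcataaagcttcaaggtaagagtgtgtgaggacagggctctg
Myh2, fast IIa, chr11:67170777-67171076 (plus strand): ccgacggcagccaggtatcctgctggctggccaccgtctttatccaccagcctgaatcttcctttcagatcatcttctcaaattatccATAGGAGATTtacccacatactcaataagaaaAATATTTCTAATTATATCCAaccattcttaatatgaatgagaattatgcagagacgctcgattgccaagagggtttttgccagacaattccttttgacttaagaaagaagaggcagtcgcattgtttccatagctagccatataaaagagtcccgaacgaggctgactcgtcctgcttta
Myh8, perinatal, chr11:67276874-67277173 (plus strand): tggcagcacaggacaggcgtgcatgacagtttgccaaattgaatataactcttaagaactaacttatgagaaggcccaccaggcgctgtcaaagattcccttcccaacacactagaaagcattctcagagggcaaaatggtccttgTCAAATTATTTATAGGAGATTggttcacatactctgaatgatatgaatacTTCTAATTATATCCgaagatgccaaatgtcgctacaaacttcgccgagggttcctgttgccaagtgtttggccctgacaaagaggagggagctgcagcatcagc
Myh3, embryonic, chr11:67078050-67078349 (plus strand): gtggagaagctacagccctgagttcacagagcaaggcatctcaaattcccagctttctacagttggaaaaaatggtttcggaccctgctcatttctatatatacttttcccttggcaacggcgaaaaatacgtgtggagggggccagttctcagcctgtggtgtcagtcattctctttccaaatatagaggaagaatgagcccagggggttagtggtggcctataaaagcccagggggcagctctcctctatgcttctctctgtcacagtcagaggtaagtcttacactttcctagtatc
Myh7, slow, chr14:54994500-54994799 (minus strand): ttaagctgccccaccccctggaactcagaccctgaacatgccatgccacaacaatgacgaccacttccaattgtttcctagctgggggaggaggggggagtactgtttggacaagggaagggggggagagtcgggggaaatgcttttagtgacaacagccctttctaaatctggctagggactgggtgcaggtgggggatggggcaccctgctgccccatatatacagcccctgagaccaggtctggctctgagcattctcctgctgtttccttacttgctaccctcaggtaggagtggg

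The fast and perinatal windows held the 14-base run TTCTAATTATATCC. Counted from the annotated start, it began at base -158 in Myh4, -160 in Myh1, -125 in Myh2 and -54 in Myh8. Of 32851 windows of this length, searched on both strands, 4 held it (0.0122%), and these were the 4 named. The windows of Myh3, Myh7, Myh7b and Myh6 held no run shared by 3 members. A MEF2 site, the AT-rich motif bound by the MEF2 muscle transcription factors, overlapped the other shared run in Myh4, Myh1 and Myh8. It was found in 3.19% of all windows and not in the other members' windows. The E-box CANNTG, bound by MyoD and its relatives, occurred in all but Myh1 and Myh2, and in 72.3% of all windows. The TATA box TATAAA, searched on both strands, occurred in 4473 windows. On the strand of the gene it began at base -29 in Myh3, -31 and -213 in Myh4, -32 in Myh1, 1 in Myh6 and 10 in Myh2. Its reverse-strand matches in Myh1, Myh4 and Myh8 lay inside the MEF2 site. All positions rest on the annotated starts, and whether these are the starts used in the cells was not tested. A match is a description of the letters and not of binding.

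**Figure D1:**
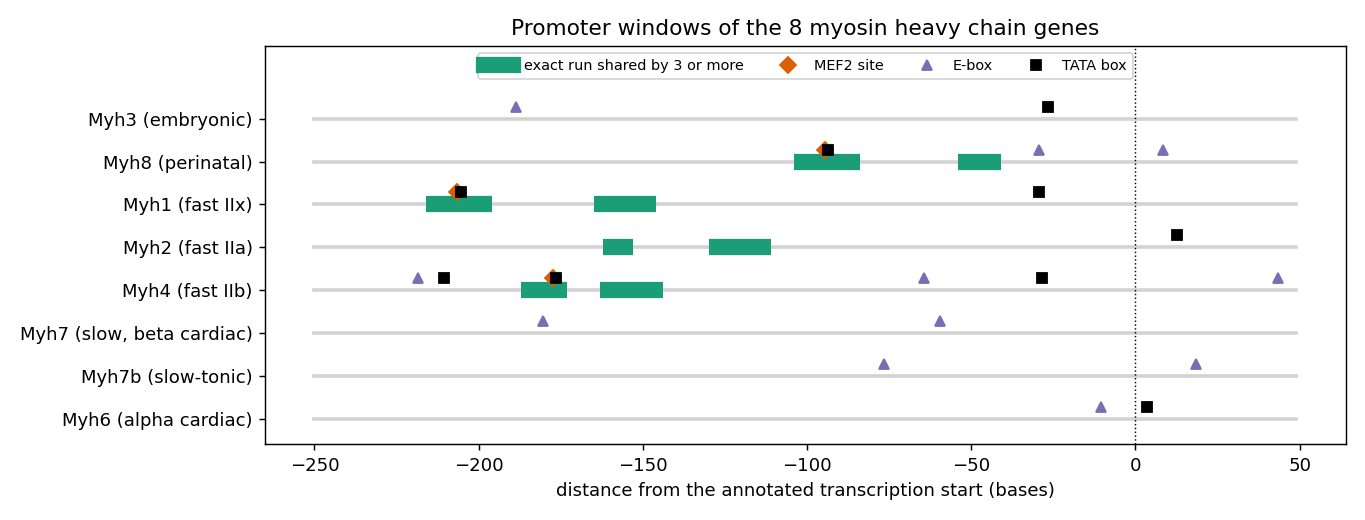
Positions of exact shared runs (bars), MEF2 sites, E-boxes and TATA boxes (symbols above each line) in the promoter windows of the 8 genes, in bases from the annotated start. The bars are in Myh8, Myh1, Myh2 and Myh4 alone among the 8 windows, and MEF2 sites lie on them in Myh8, Myh1 and Myh4.

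The knocked-down gene is given first. The only probe set for Baf60c (Smarcd3) also reads Chpf2, so the share of each gene in its signal was not resolved. It read 3.90 and 4.49 in knockdown cells at 10 mM, against 6.27 and 6.09 in control cells, and 3.01 and 2.77 in knockdown cells at 1 mM, against 5.62 and 5.40 in control cells, all log2 values. Replicates correlated at 0.987 to 0.990 across genes, and array medians over tested genes ran from 5.89 to 6.02. All 8 myotube markers (among them Acta1, Des, Myog and Mymk) passed the filter on low values, with a mean over the list of 8.69 and 8.78 in knockdown and 9.51 and 9.69 in control cells at 10 mM, and of 7.64 and 7.79 against 8.82 and 8.85 at 1 mM. Of 7 cardiac markers, Ryr2 lay below the filter, and the list mean stayed between 3.21 and 3.36 on all arrays.

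Myh3, the embryonic form, was lower in knockdown cells at both glucose levels. It read 9.42 and 9.35 in knockdown cells at 10 mM, against 10.59 and 10.77 in control cells. At 1 mM it read 7.72 and 7.55 in knockdown cells, against 9.73 and 10.01 in control cells. Knockdown and control arrays did not overlap at either level, which with 2 arrays against 2 also held for 6070 of all 13309 tested probe sets at 10 mM and 6270 at 1 mM. In bulk RNA, fewer differentiated cells and less of this RNA per cell cannot be told apart, here and below. It fell 4.70-fold at 1 mM (log2 change -2.23 ± 0.15, SE, n = 2 per group, limma adjusted p = 0.00313) and 2.46-fold at 10 mM (-1.30 ± 0.15, adjusted p = 0.0233). At 1 mM it ranked 3 by p and 14 by the size of the fall among the 13308 tested genes, the shared Smarcd3 probe set left out.

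Myh8, the perinatal form, read 4.13 and 3.91 in knockdown cells at 10 mM, against 4.86 and 5.22 in control cells. In 1 mM glucose it read 2.19 and 2.41 in knockdown cells, against 4.44 and 4.29 in control cells. Myh8 was lower in knockdown cells at both levels, without overlap, as for the 6070 and 6270 probe sets given for Myh3. It fell 4.18-fold at 1 mM (-2.06 ± 0.17, adjusted p = 0.00313) and 2.03-fold at 10 mM (-1.02 ± 0.17, adjusted p = 0.0488). A further probe set of Myh8, not used for these values, was dim, and averaging both gave a change of -0.97 at 1 mM (adjusted p = 0.0444) and of -0.81 at 10 mM (adjusted p = 0.0871).

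Myh1, the fast form IIx, read 6.96 and 7.24 in knockdown cells at 10 mM, against 8.19 and 8.55 in control cells. At 1 mM it read 4.84 and 5.33 in knockdown cells, against 7.07 and 7.12 in control cells. Here too the groups did not overlap, as for the 6070 and 6270 probe sets given for Myh3. Myh1 fell 4.02-fold at 1 mM (-2.01 ± 0.21, adjusted p = 0.00592) and 2.41-fold at 10 mM (-1.27 ± 0.21, adjusted p = 0.0465).

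Myh4 (IIb), the fastest limb muscle form, read 4.29 and 4.36 in knockdown cells at 10 mM, against 5.92 and 6.98 in control cells. At 1 mM it read 2.10 and 1.53 in knockdown cells, against 3.92 and 4.03 in control cells. The control arrays at 10 mM were the highest and the farthest apart. Myh4 fell 4.36-fold at 10 mM (-2.13 ± 0.34, adjusted p = 0.0420) and 4.47-fold at 1 mM (-2.16 ± 0.34, adjusted p = 0.0303). With 1 array left out the change at 10 mM ranged from -2.66 to -1.59, and was -1.59 without control replicate 2 at 10 mM (adjusted p = 0.138), and the call held only without control replicate 1 at 10 mM. The change at 1 mM ranged from -2.45 to -1.87, and its call held only without either control replicate at 10 mM.

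Myh2 (IIa) stayed dim. It read 2.00 and 1.73 in knockdown cells at 10 mM, against 2.05 and 3.17 in control cells, and 2.53 and 1.63 in knockdown cells at 1 mM, against 2.29 and 2.39 in control cells. Its mean of 2.22 was below the filter, a log2 value of 2.30, so it was not tested. Myh6, the alpha form of the heart, was also below the filter at 2.11. It read 3.29 and 1.55 in knockdown cells at 10 mM, against 2.28 and 2.06 in control cells, and 1.58 and 1.71 in knockdown cells at 1 mM, against 2.20 and 2.26 in control cells. The replicates of Myh2 and Myh6 lay farther apart in some groups than the group means did.

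Myh7, the slow form, read 4.23 and 4.14 in knockdown cells at 10 mM, against 5.45 and 5.18 in control cells. In 1 mM glucose it read 2.81 and 2.94 in knockdown cells, against 4.58 and 4.59 in control cells. Knockdown arrays lay below control arrays at both levels, without overlap, as for the 6070 and 6270 probe sets given for Myh3. Myh7 fell 3.28-fold at 1 mM (-1.71 ± 0.14, adjusted p = 0.00313) and 2.19-fold at 10 mM (-1.13 ± 0.14, adjusted p = 0.0235).

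Myh7b, the slow-tonic form, was lower with knockdown at 10 mM but not called at 1 mM. It read 2.06 and 2.43 in knockdown cells at 10 mM, against 3.30 and 3.30 in control cells. At 1 mM it read 2.78 and 2.86 in knockdown cells, against 2.58 and 2.49 in control cells. It was lower in knockdown cells at 10 mM (2.08-fold, -1.06 ± 0.15, adjusted p = 0.0328), while at 1 mM the difference was 0.29 ± 0.15 and did not pass the test (adjusted p = 0.415). In 3 of the 4 groups its mean was under 3, and signal above background was not shown there.

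**Figure D2:**
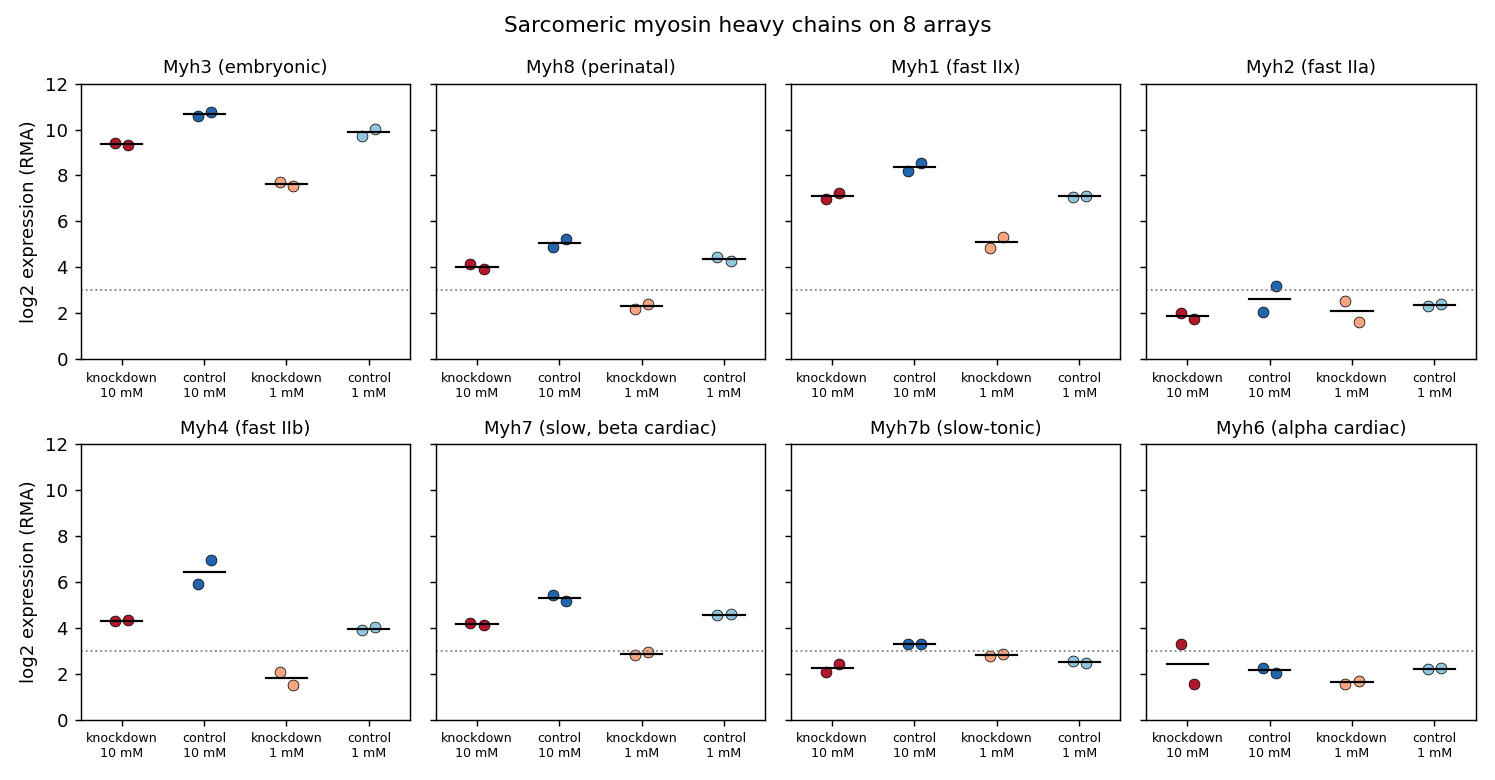
Log2 expression of the 8 genes on each of the 8 arrays (points), with the group mean (bar), in knockdown and control cells at 10 mM and 1 mM glucose. The dotted line is a log2 value of 3. In Myh3, Myh8, Myh1, Myh4 and Myh7 the control arrays at 10 mM are highest and the knockdown arrays at 1 mM lowest.

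The bound of 3 on the log2 scale was picked with the values in view and lay at percentile 55.3 of the means of all probe sets, and below it signal above background was not shown. In knockdown cells at 1 mM, Myh4, Myh8 and Myh7 had means of 1.81, 2.30 and 2.87, at percentiles 30.5, 44.6 and 54.1 of all probe sets. The close relatives of the fast and perinatal group may also share signal between probe sets. Whether they do was not tested. The probe set of Myh2 lay at percentile 34.7 to 49.9 in the 4 groups.

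In all, 5 of the 6 tested heavy chains fell with knockdown at 1 mM and 1 did not pass. Among all 13309 probe sets tested 1.5% were called there, 1.26% lower and 0.24% higher. At 10 mM all 6 tested members fell, where 1.13% of all were called, 0.706% lower and 0.428% higher. The members' median change was -2.04 at 1 mM and -1.20 at 10 mM, and that of all tested probe sets was -0.03 and 0.01. The members' adjusted p at 10 mM lay between 0.0233 and 0.0488. Between 0 and 3 members were called there when 1 array was left out, 3 with the replicate number as a block, 2 without the filter on low values, and 0 with the 4 arrays of the contrast alone. Over all probe sets fitted, 74 were called there with the block, 70 without the filter and 6 with the 4 arrays alone. Leaving out 1 array at 10 mM leaves 1 in its group, and a count from such a fit says little about the members. At 1 mM 3 to 5 were called with 1 array left out, and 3 without either control replicate at 1 mM, and 3 with the 4 arrays of the contrast alone. Direction did not change in any of these.

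**Figure D3:**
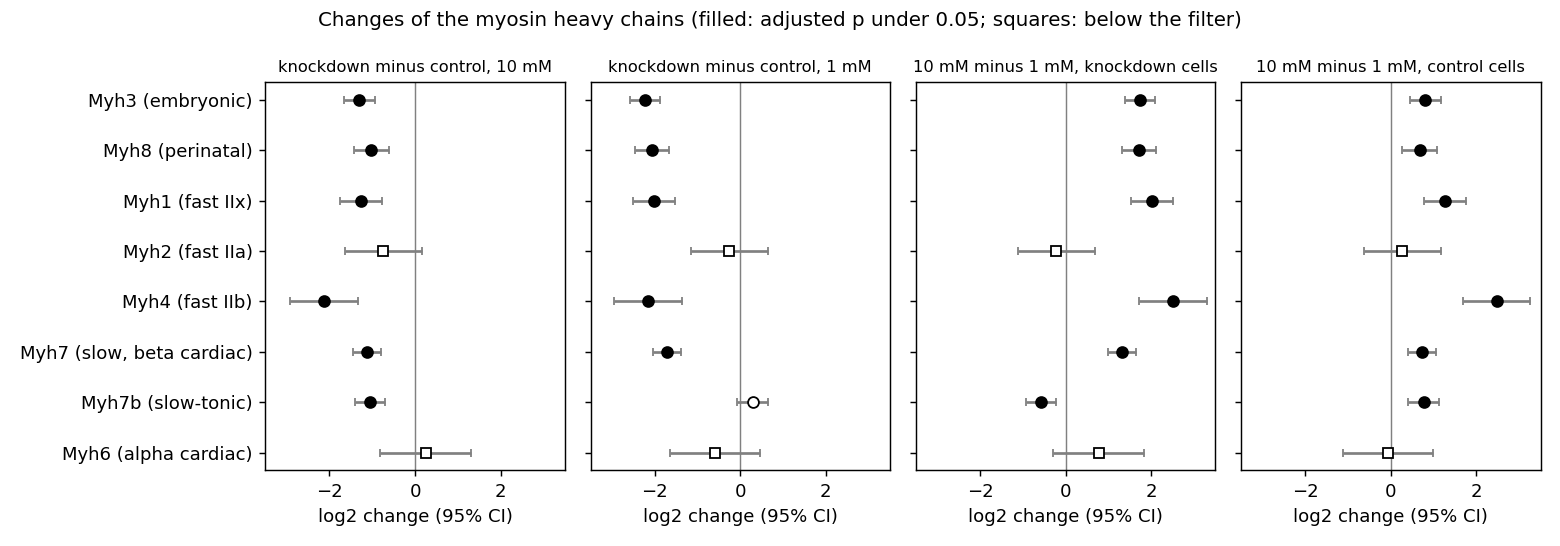
Log2 change with its 95% confidence interval for each gene in the 4 comparisons, knockdown minus control and 10 mM minus 1 mM glucose. Filled symbols passed the test and squares mark genes below the filter. Myh4 stands farthest from 0 among the 6 tested heavy chains in both glucose comparisons, at 2.51 in knockdown and 2.48 in control cells.

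The comparison of glucose levels asks how the isoforms differ between cells kept at 10 mM and at 1 mM. All 6 tested members were higher at 10 mM in control cells, where 25.3% of all tested probe sets were called, 13.2% higher and 12.1% lower. In knockdown cells 5 were higher and Myh7b was lower, where 25.1% of all were called, 14.6% higher and 10.6% lower. Without control replicate 2 at 10 mM 3 were called in control cells. The members' median change was 1.73 in knockdown cells and 0.79 in control cells, with medians of 0.03 and -0.01 over all tested probe sets. These comparisons use other pairs of the same 8 arrays as the knockdown comparisons, so the 2 sets are not independent.

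Myh4 rose 5.70-fold as measured in knockdown cells (2.51 ± 0.34, adjusted p = 0.00190) and 5.56-fold in control cells (2.48 ± 0.34, adjusted p = 0.00231). In knockdown cells Myh4, Myh8 and Myh7 were below the bound of 3 at 1 mM, so the sizes of their changes against that group are uncertain. For Myh1 the rise was 4.04-fold in knockdown cells (2.01 ± 0.21, adjusted p = 0.000709) and 2.42-fold in control cells (1.28 ± 0.21, adjusted p = 0.00479). The knockdown arrays of Myh1 at 10 mM lay beside the control arrays at 1 mM.

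The developmental forms also rose in both. Myh3 was 3.36-fold higher at 10 mM in knockdown cells (1.75 ± 0.15, adjusted p = 0.000372) and 1.75-fold in control cells (0.81 ± 0.15, adjusted p = 0.00799). Myh8 was 3.29-fold higher in knockdown cells (1.72 ± 0.17, adjusted p = 0.000632) and 1.60-fold in control cells (0.68 ± 0.17, adjusted p = 0.0272). Averaging both probe sets of Myh8 gave changes of 0.96 in knockdown and 0.80 in control cells. Under settings other than leaving out an array, the limma adjusted p of Myh8 in control cells reached 0.0620, so its call did not hold in all. The call of Myh3 in control cells missed the threshold without control replicate 2 at 10 mM (0.72, adjusted p = 0.0501). The call of Myh8 in control cells was lost without control replicate 2 at 10 mM (0.49, adjusted p = 0.137), without control replicate 1 at 1 mM (0.75, adjusted p = 0.0692) and without control replicate 2 at 1 mM (0.60, adjusted p = 0.124).

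The slow form Myh7 was up 2.48-fold in knockdown cells (1.31 ± 0.14, adjusted p = 0.000769) and 1.66-fold in control cells (0.73 ± 0.14, adjusted p = 0.00888). Myh7b fell 1.49-fold in knockdown cells (-0.58 ± 0.15, adjusted p = 0.0309) and rose 1.70-fold in control cells (0.77 ± 0.15, adjusted p = 0.0104). Its fall in knockdown cells did not pass without knockdown replicate 1 at 10 mM (-0.39, adjusted p = 0.173), without either knockdown replicate at 1 mM (adjusted p = 0.0812 and 0.117), without the filter (0.0567) or with a trended robust fit (0.117). Its rise in control cells did not pass without control replicate 2 at 10 mM (0.77, adjusted p = 0.0507) or at 1 mM (0.72, adjusted p = 0.0588).

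Whether the glucose change differs between knockdown and control cells was tested directly. None of the 6 members, and 0% of all 13309 probe sets, passed limma's test of this difference, while 1049 had an unadjusted p under 0.05, and 1 passed with a trended and robust fit. The difference was 1.04 ± 0.25 for Myh8 (adjusted p = 0.417), 0.94 ± 0.21 for Myh3 (adjusted p = 0.417), 0.74 ± 0.30 for Myh1 (adjusted p = 0.603) and 0.58 ± 0.20 for Myh7 (adjusted p = 0.585). For Myh7b it was -1.34 ± 0.22 (adjusted p = 0.300). For Myh4 it was 0.03, with a 95% confidence interval from -1.08 to 1.15. Averaging both probe sets of Myh8 lowered its difference to 0.16.

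The 4 groups fell into the same order for Myh1, Myh3, Myh4, Myh7 and Myh8 at the ends, with control cells at 10 mM highest and knockdown cells at 1 mM lowest. The groups between, knockdown cells at 10 mM and control cells at 1 mM, differ in both factors, and they were set side by side after the data were seen. None of the 6 tested members passed the test there, where 27.1% of all probe sets did. The difference was 0.01 for Myh1, with a 95% confidence interval from -0.48 to 0.50, and 0.35 for Myh4, from -0.44 to 1.14. It was -0.49 for Myh3 (adjusted p = 0.0504), -0.40 for Myh7 (adjusted p = 0.0731), and -0.35 for Myh8 (adjusted p = 0.185). For Myh7b the order was control at 10 mM, knockdown at 1 mM, control at 1 mM and knockdown at 10 mM.

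The isoforms were then compared with each other by their changes, since levels of different probe sets cannot be compared. The log2 value of Myh3 was subtracted from that of each other member on the same array, and the labels were permuted within the other factor. With 36 arrangements the exact two-sided p cannot go below 0.0556. Averaged over both glucose levels, the knockdown change of Myh1 differed from that of Myh3 by 0.13 (exact p = 0.556), that of Myh8 by 0.22 (exact p = 0.167), that of Myh7 by 0.34 (exact p = 0.167) and that of Myh4 by -0.38 (exact p = 0.278). Adjusted over the 7 members compared, these p-values were 0.556, 0.233, 0.233 and 0.324.

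The glucose change of Myh4 minus that of Myh3 was 1.21 on average (exact p = 0.0556, adjusted over 7 members 0.194) and did not pass, as the design cannot reach 0.05. It was made up of 0.76 in knockdown and 1.66 in control cells. It stayed between 0.99 and 1.43 with any 1 array left out. For Myh1 it was 0.37 (exact p = 0.111), for Myh8 -0.08 (exact p = 0.556) and for Myh7 -0.26 (exact p = 0.167). For Myh7b the glucose difference from Myh3 was -2.32 in knockdown and -0.04 in control cells, with a mean of -1.18 (exact p = 0.167). Its knockdown difference from Myh3 was 0.24 at 10 mM and 2.52 at 1 mM, with a mean of 1.38 (exact p = 0.111). These values carry the limit that Myh7b was dim, and that Myh4 was dim in knockdown cells at 1 mM. The 7 members compared include Myh2 and Myh6, which were below the filter. The knockdown difference of Myh6 from Myh3 was 1.60, also with an exact p of 0.0556, and its glucose difference -0.92 (exact p = 0.111). For Myh2 these were 1.26 and -1.25 (exact p = 0.111 for both).

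**Figure D4:**
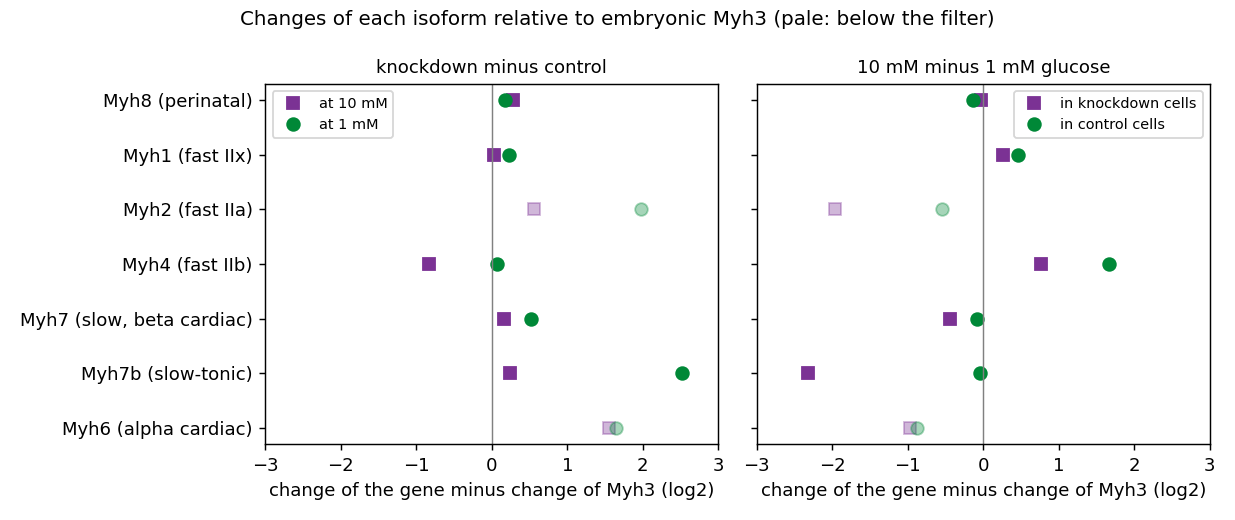
Change of each isoform minus the change of Myh3 on the log2 scale, for knockdown minus control at 10 mM and 1 mM (left) and for 10 mM minus 1 mM glucose in knockdown and control cells (right). Pale symbols are genes below the filter. With glucose, Myh4 lies right of 0, at 0.76 in knockdown and 1.66 in control cells.

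Over the 8 arrays, which share 2 factors and a common normalization, Myh1, Myh3, Myh4, Myh7 and Myh8 correlated with each other at r = 0.925 to 0.988, and Myh7b with them at 0.211 to 0.388. Genes most like a member in pattern were sought among tested genes outside the family, with predicted genes, clone names and small RNAs left out. Those most like Myh3 were Myom1, Mef2c and Neb (r = 0.999, 0.996 and 0.996). Myom1 encodes an M-band protein that links thick filaments, Mef2c a muscle transcription factor and Neb the giant thin filament protein nebulin. Most like Myh4 were Chpt1, Abra and Tmem38a (r = 0.990, 0.988 and 0.988), and most like Myh7 were Sgca, Chrna1 and Eno3 (r = 0.998, 0.991 and 0.990). These are descriptions over 8 arrays.

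The sarcomeric light chains, which bind the neck of the heavy chain, partly moved with it. Of 7 listed, 5 were bright enough to be tested. With knockdown at 1 mM 3 fell and 2 did not pass, with a median of -1.29. At 10 mM 2 fell and 3 did not pass, with a median of -1.40. Of all tested probe sets 1.26% were called lower and 0.24% higher at 1 mM, here and for the lists below. At 10 mM these shares were 0.706% and 0.428%. Myl4, the embryonic and atrial essential light chain, fell 3.87-fold at 10 mM (-1.95 ± 0.13, adjusted p = 0.00325) and 3.51-fold at 1 mM (-1.81 ± 0.13, adjusted p = 0.00313). Myl6b fell 3.35-fold at 10 mM and 2.45-fold at 1 mM, and Myl1, the fast essential light chain, fell 2.55-fold at 1 mM. With glucose 4 of the 5 rose in knockdown cells and 3 in control cells. Of all tested probe sets 14.6% and 13.2% were called higher there. Mylpf, the fast regulatory light chain, rose 1.94-fold in knockdown and 1.62-fold in control cells.

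Of 11 genes listed as partners of the thick filament, 7 were tested. The list also holds Myot, the gene of a Z-disc protein, which enters the counts and medians. With knockdown Myot was at -0.24 at 1 mM and 0.39 at 10 mM and did not pass. With knockdown at 1 mM 4 fell and 3 did not pass (median -1.13), and at 10 mM 1 fell and 6 did not pass (median -0.90). Myom1 fell 8.03-fold at 1 mM (adjusted p = 0.00207) and 3.43-fold at 10 mM. The M-band genes Myom3 and Myom2 and the titin gene Ttn fell 3.13-fold, 2.19-fold and 2.21-fold at 1 mM. With glucose 3 rose in knockdown cells, where 14.6% of all were called higher, and 2 in control cells, where 13.2% were. Among them was Myom1, 4.86-fold higher in knockdown and 2.08-fold in control cells.

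Of 12 genes listed under myosin folding and turnover, all tested, 2 fell with knockdown at 1 mM and 1 at 10 mM. The others did not pass. The list also holds the light chain kinase genes Mylk, Mylk2 and Mylk4, and Mylk is counted among the rises with glucose in control cells. Smyd1, a muscle methyltransferase needed for thick filament assembly in zebrafish, fell 2.36-fold at 1 mM (adjusted p = 0.0125) and 1.91-fold at 10 mM (adjusted p = 0.0465). Trim63, the ubiquitin ligase MuRF1 that marks thick filament proteins for breakdown, fell 2.59-fold at 1 mM (adjusted p = 0.0328). The myosin chaperone gene Unc45b was at -1.39 at 1 mM (adjusted p = 0.0820). It rose with glucose 3.44-fold in knockdown and 2.70-fold in control cells. Of the 12, 5 rose with glucose in knockdown cells, where 14.6% of all were called higher, and in control cells 4 rose and 1 fell, where 13.2% were called higher and 12.1% lower.

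Of 22 regulators of muscle genes and of isoform choice, 20 were tested. With knockdown 4 fell at 1 mM and 3 at 10 mM, 0 rose, and the medians of -0.20 and -0.11 were near those of all tested probe sets. Mef2c read 7.26 and 7.39 in knockdown cells at 10 mM, against 8.63 and 8.72 in control cells, and 5.81 and 5.37 in knockdown cells at 1 mM, against 7.62 and 7.88 in control cells. It fell 4.49-fold at 1 mM (-2.17 ± 0.18, adjusted p = 0.00313) and 2.54-fold at 10 mM (adjusted p = 0.0290). The myogenic factor gene Myog fell 2.11-fold at 1 mM and 1.82-fold at 10 mM, Tbx15, a fast fibre factor, 2.13-fold and 1.98-fold, and Tead4 2.32-fold at 1 mM. 

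With glucose 11 of these 20 regulators rose and 1 fell in knockdown cells, where 14.6% of all were called higher and 10.6% lower. In control cells 7 rose and 2 fell, where 13.2% of all were called higher and 12.1% lower. Myf5 fell in both, at -0.95 in knockdown and -0.81 in control cells. Eya4 fell in control cells (-0.71) and was at -0.31 in knockdown cells, where it did not pass. Myod1, which starts the muscle programme, rose 5.71-fold in knockdown and 4.58-fold in control cells. Six4 rose 2.28-fold in knockdown and 2.35-fold in control cells. Maf rose 3.35-fold in knockdown and 2.10-fold in control cells. Mef2c rose 3.34-fold in knockdown and 1.89-fold in control cells. Vgll2 had the smallest p of this list in knockdown cells (3.11-fold higher, limma adjusted p = 0.000307). In control cells Vgll2 was at 0.41 and did not pass (adjusted p = 0.0645). Nfatc1 rose 1.95-fold in knockdown and 1.97-fold in control cells.

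Of 6 heavy chains listed from outside this group, 4 were tested, and 0 passed with knockdown at either level by limma. Their medians were -0.19 at 1 mM and 0.23 at 10 mM. Myh9, the main non-muscle form, read 11.48 and 11.43 in knockdown cells at 10 mM, against 11.10 and 11.23 in control cells, and 11.08 and 11.22 in knockdown cells at 1 mM, against 11.31 and 11.27 in control cells. Its groups differed by 0.29 at 10 mM (adjusted p = 0.372) and by -0.14 at 1 mM (adjusted p = 0.638). Myh10, another non-muscle form, rose with glucose 2.10-fold in knockdown cells (1.07 ± 0.12, adjusted p = 0.000846) and 1.55-fold in control cells (0.63 ± 0.12, adjusted p = 0.00763).

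Of 4 light chains of non-muscle and smooth muscle myosin, 1 rose with knockdown at 10 mM and 0 at 1 mM. Myl9 rose 2.36-fold at 10 mM (1.24 ± 0.21, adjusted p = 0.0488). With glucose 2 of the 4 rose in knockdown and 3 in control cells, where 14.6% and 13.2% of all were called higher. Myl9 rose 3.39-fold in knockdown and 2.30-fold in control cells.

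**Figure D5:**
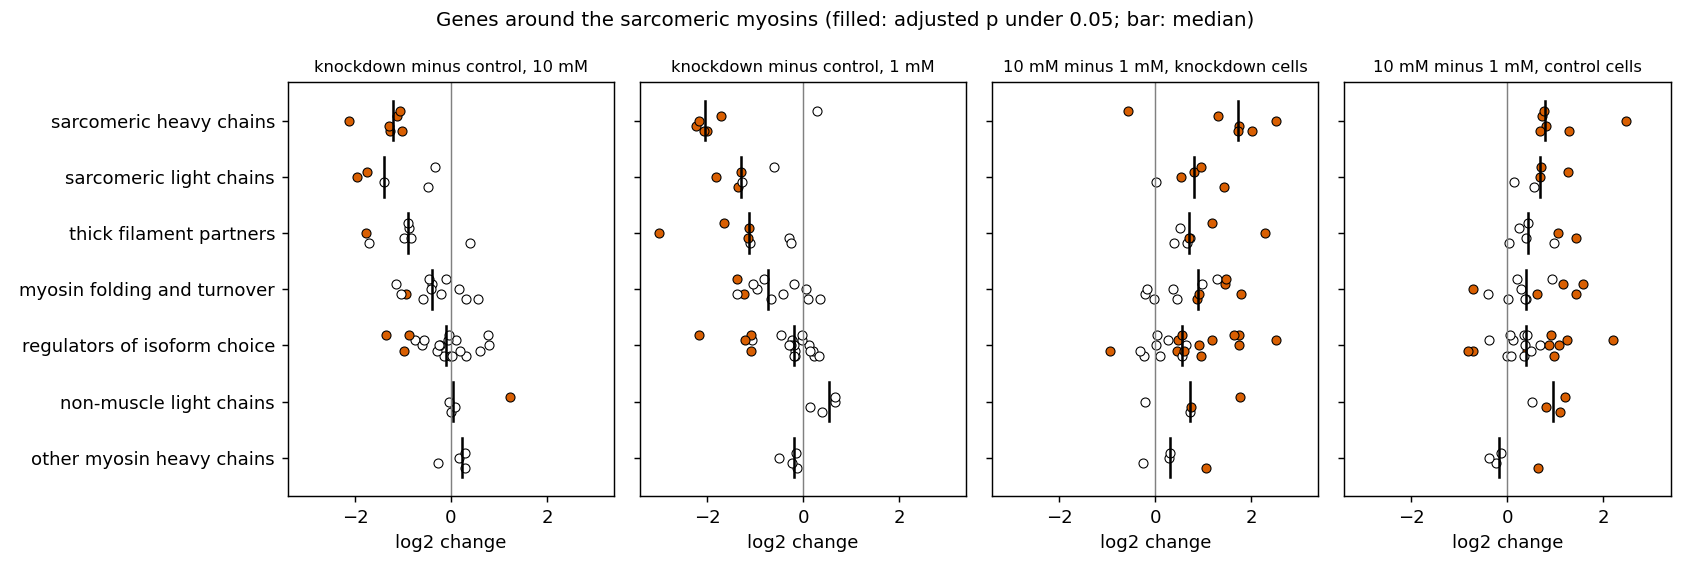
Log2 changes of single genes (points, filled where the test was passed) and medians (bars) for the tested sarcomeric heavy chains and 6 lists around them, in 4 comparisons. With knockdown the sarcomeric heavy chains have medians of -1.20 at 10 mM and -2.04 at 1 mM, and the other heavy chains 0.23 and -0.19.

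Markers of differentiation and of other cells were read beside these changes. Of 8 myotube markers, 6 fell with knockdown at 1 mM (median -1.16) and 3 at 10 mM (median -0.85), among them the creatine kinase gene Ckm, 3.09-fold and 3.32-fold. With glucose 8 rose in knockdown and 4 in control cells, where 14.6% and 13.2% of all were called higher. Of 6 smooth muscle markers, 2 rose with knockdown at 10 mM, Cnn1 4.84-fold (adjusted p = 0.0235) and Tagln 2.17-fold (adjusted p = 0.0465), and 0 passed at 1 mM. The list mean was 6.83 and 6.89 in knockdown and 6.11 and 6.23 in control cells at 10 mM, and 6.26 and 6.31 against 5.79 and 5.89 at 1 mM. Myh11, the smooth muscle heavy chain, had a mean of 2.87 over the arrays.

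None of 6 undifferentiated myoblast markers passed with knockdown by limma (medians -0.06 at 1 mM and -0.38 at 10 mM). With glucose 3 rose and 1 fell, in knockdown as in control cells. Over all tested probe sets, here and below, 14.6% rose and 10.6% fell in knockdown cells, and 13.2% and 12.1% in control cells. Of 5 fibroblast markers, 0 passed with knockdown, and with glucose 4 rose in knockdown and 5 in control cells. Cardiac markers did not pass in any of the 4 comparisons, among 6 tested of 7. Adipocyte markers passed in none, and of macrophage markers Cd68 and Ptprc fell with glucose in knockdown cells. The list means of adipocyte and macrophage markers lay between 2.22 and 2.75. The part of any other cell type or of the stage of differentiation in the changes of the heavy chains was not tested.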

How the data were processed

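The submitters' processing notes name RMA and affy as the authors' route to the deposited log2 values. Their versions and the genome build are not given in the sources used here. Values of 41345 probe sets on 8 arrays were used without further normalization, and their number limits the precision. Of these, 23521 were assigned to exactly 1 gene by the platform annotation, 1814 to several and 16010 to none. Each of 22180 genes was read from its brightest single-gene probe set, and genes under the 40th percentile of the mean (log2 2.30) were left out, which kept 13308. They were fitted together with the shared probe set of Smarcd3.

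limma 3.58.1 in R 4.3.3 (lmFit, eBayes) was run with 1 mean per group, 5 contrasts, two-sided tests and Benjamini-Hochberg adjustment over 13309 probe sets, with calls at an adjusted p under 0.05. The fit had 4 residual and 3.36 prior degrees of freedom. The fit was tested on simulated data. Replicate numbers did not pair the arrays, since the deviations of same-numbered arrays correlated at -0.04 to 0.11. All 8 members were named. From the related lists some called genes were named, not always those with the smallest p. Uncalled values, such as those of Myh9 and of Unc45b at knockdown, were added after they were seen. Members, lists and contrasts were chosen with earlier results of these data known. The bound of 3, the middle-group comparison and the shared-run search were chosen after the values or sequences were seen. Alternatives were other filters, array centring, a trended robust fit, a replicate block, averaged probe sets, fewer arrays and each array left out. Promoter sequences came from RefSeq, GRCm38.p6, matched by symbol for all 8 genes. Some listed genes are not reported here.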

Additional observations from a re-analysis of the deposited data

Results flagged for a closer look

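Myh7b had glucose changes of opposite direction in knockdown and control cells, with no overlap between the arrays of either pair of groups, as for 8542 of 13309 probe sets in knockdown cells and 8570 in control cells. It changed by -0.58 in knockdown and by 0.77 in control cells, a difference of -1.34 on the log2 scale. The interaction did not pass limma's test (adjusted p = 0.300, unadjusted p = 0.000363), and ranked 15 by p among 13309 probe sets. The values lay between 2.06 and 3.30, where signal above background was mostly not shown, and the part of dim signal in the result was not tested.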

How the results depend on the processing

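Over all probe sets, a trended robust fit called 599 at 1 mM, 468 at 10 mM and 1 for the interaction. A filter at the 60th percentile called 438 at 1 mM and 292 at 10 mM, and the 4 arrays of each contrast alone called 23 and 6. At 10 mM no filter gave 70 and the replicate block 74. With 1 array left out, calls ran from 31 to 130 at 1 mM, from 0 to 77 at 10 mM, from 1904 to 3186 for glucose in knockdown cells, from 2044 to 3251 for glucose in control cells, and stayed at 0 for the interaction.

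Of the heavy chains, the stricter filter left Myh1 and Myh3, and both (2) were called in each of the 4 comparisons. At 10 mM knockdown calls numbered 2 without the filter, 3 with the replicate block and 0 with 4 arrays, and at 1 mM 3 with 4 arrays. Replicate numbers do not pair the arrays, and with the replicate block the calls lost were Myh4 at 1 mM (adjusted p = 0.0582) and Myh4, Myh7b and Myh8 at 10 mM. With 1 array left out, 3 to 5 were called at 1 mM, 0 to 3 at 10 mM, 5 to 6 for glucose in knockdown cells and 3 to 6 in control cells.

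Directions reversed for values near 0. The interaction of Myh4 was -0.011 with arrays centred on their median and ran from -0.50 to 0.57 with 1 array left out. Relative to Myh3, the knockdown change of Myh1 ran from -0.040 to 0.29 and the glucose change of Myh8 from -0.19 to 0.025. Among all the members' values, uncalled ones included, 161 stayed on their side of the threshold with the same direction under settings other than leaving out an array, 22 lost the call and 1 reversed. With 1 array left out these counts were 181, 56 and 3. Centring the arrays put 46.9% of glucose calls in knockdown cells higher, against 57.9% as deposited. Signal over background could not be read from these files, and 2 arrays a group limit the precision.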

Other observations

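Some features of the same loci were read after the values were seen and, apart from the Myh8 average given above, enter no comparison there. The linc-Myh transcript 2310065F04Rik, a noncoding RNA that lies between Myh3 and Myh2 in the reference annotation, read 2.15 and 2.26 in knockdown and 2.65 and 3.16 in control cells at 10 mM, and 1.99 and 1.97 in knockdown and 2.00 and 2.02 in control cells at 1 mM. It rose with glucose in control cells (0.90 ± 0.18, limma adjusted p = 0.0102) and was at 0.23 ± 0.18 in knockdown cells (adjusted p = 0.407). The interaction did not pass either (adjusted p = 0.590). All its group means were under 3, and its mean over the arrays was 2.27.

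The microRNA genes Mir208a, Mir208b and Mir499, carried in the introns of Myh6, Myh7 and Myh7b, had means of 1.42, 1.25 and 1.23 over the 8 arrays, and none passed in any of the 5 comparisons by limma (lowest unadjusted p = 0.329). The further probe set of Myh8 had a mean of 1.93 over the arrays, against 3.93 for the brighter one, and its knockdown change was 0.13 at 1 mM (adjusted p = 0.907) and -0.59 at 10 mM (adjusted p = 0.573).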
